A study of Mus musculus with 12 samples.

Results

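The genes described here are 5 signal transducers and activators of transcription (Stat3, Stat4, Stat5a, Stat5b and Stat6) and 4 inhibitors of the suppressor of cytokine signalling family (Socs1, Socs2, Socs3 and Cish). They were chosen by symbol, not by measured values, and all 9 were found among the 12809 genes of the table. Their RNA was sequenced from sorted CD4 and sorted CD8 T cells of the lymph nodes (LN) of female B6 (C57BL/6) mice, aged 10 weeks in the labels, and female FlipFlop mice, aged 14 weeks. The study's methods differ from these labels, since the age range they give for all mice ends below that of the FlipFlop mice and they name both sexes. FlipFlop mice carry 2 altered loci, a Cd8a locus that encodes CD4 protein and a Cd4 locus that encodes CD8 protein, and 1 of the altered alleles came from embryonic stem cells of a strain other than B6. The 12 libraries fall into 4 groups of 3, named by strain and coreceptor: B6 CD4 and B6 CD8, and FlipFlop CD4 and FlipFlop CD8. The study assigns B6 CD4 and FlipFlop CD8 T cells to the helper lineage and the other 2 groups to the cytotoxic lineage. The sources used here do not name sort markers beyond CD4 and CD8, or state whether a library came from 1 mouse or from pooled mice. Where libraries are not from separate mice, p-values measure only the spread between libraries.

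Cytokines that bind their receptors on T cells activate receptor-bound JAK kinases, which phosphorylate STAT proteins. The STAT proteins then pair, enter the nucleus and switch on target genes. STAT4 is known as the transducer of interleukin-12 signals, STAT5A and STAT5B of interleukin-2 and interleukin-7 signals, STAT6 of interleukin-4 signals, and STAT3 of signals from interleukin-6 and its relatives. SOCS proteins are induced by the same signals and bind receptors or JAK kinases, which makes them both readouts and brakes of the pathway. SOCS1 and SOCS3 can block JAK kinase activity directly, whereas CISH and SOCS2 bind phosphorylated receptor chains, and Cish and Socs2 are textbook targets of STAT5. The levels below are RNA levels, and phosphorylation of STAT proteins was not measured in these libraries.

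The genes lie on 5 chromosomes, none of them the chromosome of Cd4 and Cd8a (GRCm38, GENCODE M21). Stat5b (chr11:100780731-100850724, minus strand), Stat5a (chr11:100859351-100885169, plus strand) and Stat3 (chr11:100885098-100939540, minus strand) are neighbours, with 8626 bases between Stat5b and Stat5a and 72 bases shared by Stat5a and Stat3 on opposite strands. Stat5a and Stat5b transcripts have an identical run of 324 bases, longer than the reads, and 15.8% of the 50-base windows of the longest Stat5a transcript also occur in Stat5b. How reads from such stretches were assigned is not given in the sources used here, so the split between Stat5a and Stat5b is uncertain. Socs3 (chr11:117966079-117970047, minus strand) is on the same chromosome. Socs2 (chr10:95385362-95417180, minus strand) and Stat6 (chr10:127642986-127660957, plus strand) share another. Stat6 overlaps Nab2 on the opposite strand and Stat4 overlaps Gm28177 on its own strand, while Cish lies over the unlisted Gm17040 and Gm17041 on the opposite strand, and reads of overlapping genes cannot be told apart where strand was not used in counting. Stat4 is at chr1:51987148-52107189 on the plus strand, Socs1 at chr16:10782240-10785536 on the minus strand, and Cish at chr9:107296026-107302784 on the plus strand.

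RefSeq promoter windows (250 bases before to 50 bases after a start, GRCm38.p6) were at hand for 8 of the 9 genes, all but Socs2. They were searched on both strands for TTCNNNGAA, a form bound by STAT dimers, and for GAAANNGAA, a repeat known from interferon-responsive promoters. No match of one motif overlapped a match of the other. Each motif matched 2 of the 11 windows of these genes, and all of these matches are shown. Stat3, Stat5a, Stat5b and Stat6 had no match. Each line is read 5′ to 3′ on the strand of the gene, and capitals mark the fixed letters of a match.
Cish: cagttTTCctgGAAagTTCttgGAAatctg
Socs3: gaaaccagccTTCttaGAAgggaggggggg
Socs1: cttgccgGAAAgaGAAAccGAAagcggggg
Stat4: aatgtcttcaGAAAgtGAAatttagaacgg
The Cish stretch (chr9:107296654-107296683, plus strand) holds 2 matches to TTCNNNGAA that do not overlap. They begin at the first and the 12th base after the RefSeq start, inside the first exon and untranslated region of the GENCODE transcript Cish-201. The Socs3 stretch (chr11:117969501-117969530, minus strand) holds 1 match to the same motif, 154 bases before the start, within a further GENCODE transcript of Socs3 but in none of its exons. Of all 32851 windows, 8.30% held TTCNNNGAA and 0.457% held it 2 or more times. The Socs1 stretch (chr16:10785597-10785626, minus strand) holds 2 matches to GAAANNGAA that share letters, and Stat4 holds 1 match (chr1:52008133-52008162, plus strand) before 1 of its 2 RefSeq starts, a start within the gene. GAAANNGAA occurred in 8.56% of all windows and 2 or more times in 0.624%. A match describes the letters in a window and not a bound site.

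Levels are given in CPM, reads relative to the total of a library, scaled by TMM, a factor for differences in composition. The libraries held about 26600000 to 33100000 reads on listed genes, so that 3 reads correspond to 0.0857 to 0.120 CPM. Zbtb7b, the gene of the helper-lineage factor ThPOK, was at 162 to 203 CPM in the helper-lineage libraries and at 1.16 to 2.79 CPM in the cytotoxic-lineage libraries. The RNA read at the Cd8a gene was 0.420 to 1.59 CPM in the CD4 libraries of either strain, 1472 to 1500 CPM in B6 CD8 and 138 to 159 CPM in FlipFlop CD8 libraries. T cell genes were present in every library, with a summed level of Cd3d, Cd3e, Cd3g, Trac and Cd2 between 2339 and 3689 CPM. The CD4 and CD8 libraries of B6 numbered 3 had the highest Socs1 levels, and results that change without both are also given without them.

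The first question was which of these genes differ between CD4 and CD8 T cells of normal mice, and whether the difference follows the surface coreceptor or the lineage when the coreceptors are exchanged. Differences were tested on log2(CPM + 0.5) with limma, and a gene passed where its Benjamini-Hochberg adjusted p over 11595 genes was under 0.05. This scale understates the change of low genes. Errors after ± are standard errors of that fit. All 9 genes were tested. In B6, 4 of 9 genes passed (Stat4, Stat5b, Socs2 and Cish), against 25.4% of all genes tested. In FlipFlop, 5 of 9 passed (the same 4 and Stat6), against 31.3% of all genes, and each of the shared 4 had the opposite sign. The lineage effect, the mean of helper-lineage groups minus the mean of cytotoxic-lineage groups, passed for those 5 genes against 39.3% of all genes. The lineage effect is the same contrast as the difference between the B6 and FlipFlop CD4 minus CD8 differences, so it also tests whether these 2 differ. The coreceptor effect, CD4 minus CD8 over both strains, passed for 1 gene, Socs2, against 5.49% of all genes. With a change of more than 2-fold also required, Socs2 and Cish were left in B6, in FlipFlop and for the lineage effect, against 7.67%, 9.06% and 7.95% of all genes. With more than 5-fold at an unadjusted p under 0.0001, Socs2 was left in these 3 comparisons, against 1.55%, 2.16% and 1.61% of all genes, and at an unadjusted p under 0.05 the shares were 1.57%, 2.21% and 1.61%. None of the 9 genes changed more than 2-fold with an adjusted p under 0.05 for the coreceptor effect, the strain effect, FlipFlop CD4 minus B6 CD8 or FlipFlop CD8 minus B6 CD4, where 0.638%, 1.74%, 1.93% and 4.35% of all genes did. The median absolute lineage effect was 0.15 over the 9 genes and 0.16 over all genes tested, both on the log2 scale.

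**Figure D1:**
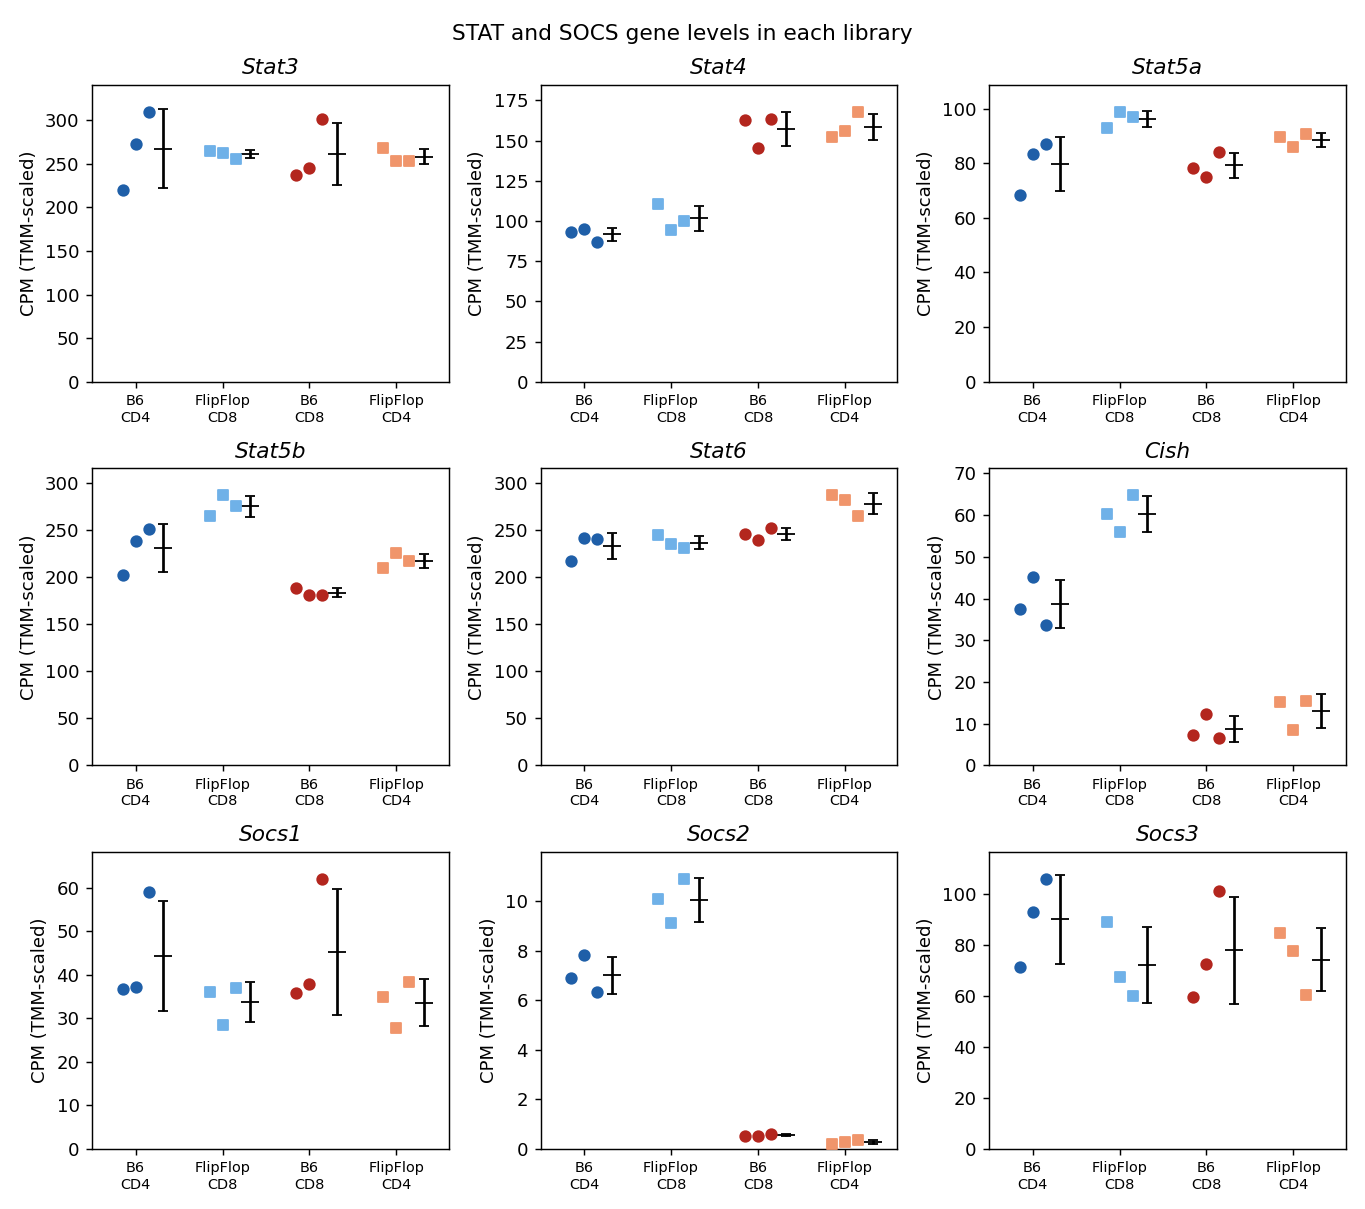
Levels of the 9 genes in each of the 12 libraries (TMM-scaled CPM, linear axes from 0), with helper-lineage groups in blue and cytotoxic-lineage groups in red or orange. Points are libraries in the order 1 to 3, and bars at their right are mean and SD of 3 libraries. Socs2 and Cish were high in all 6 helper-lineage libraries and Stat4 in all 6 cytotoxic-lineage libraries, while the highest Socs1 values (59.0 and 62.0 CPM) were in B6 libraries numbered 3.

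Among the STAT genes, Stat4 had the largest difference, and it was higher in cytotoxic-lineage cells of both strains. In B6 mice, the CD4 libraries had 93.3, 94.9 and 87.1 CPM and the CD8 libraries 163, 145 and 164 CPM. In FlipFlop mice, the CD4 libraries had 152, 156 and 168 CPM and the CD8 libraries 110, 94.6 and 99.8 CPM. All 6 cytotoxic-lineage libraries lay above all 6 helper-lineage libraries. The ratio of means was 1.71 for B6 CD8 over B6 CD4 and 1.56 for FlipFlop CD4 over FlipFlop CD8. The log2 difference CD4 minus CD8 within B6 was -0.77 ± 0.076 (SE) (adjusted p = 1.02e-05), and within FlipFlop it was 0.64 ± 0.076 (adjusted p = 3.77e-05). The lineage effect was -0.71 ± 0.054 on the log2 scale (adjusted p = 4.71e-07).

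Stat5b was modestly higher in helper-lineage cells within each strain. The B6 CD4 libraries had 203, 239 and 252 CPM, and those of B6 CD8 had 189, 181 and 181 CPM. The FlipFlop CD4 libraries had 210, 225 and 217 CPM, and those of FlipFlop CD8 had 265, 287 and 275 CPM. The CD4 and CD8 libraries did not overlap within either strain, but FlipFlop CD4 libraries overlapped the B6 CD4 libraries. The ratio of means was 1.26 for B6 CD4 over CD8 and 1.27 for FlipFlop CD8 over CD4. The log2 difference CD4 minus CD8 within B6 was 0.33 ± 0.078 (adjusted p = 0.00843), and within FlipFlop it was -0.34 ± 0.078 (adjusted p = 0.00545). The lineage effect was 0.33 ± 0.055 (adjusted p = 0.000409). Without both B6 libraries numbered 3, an alternative chosen after the data were seen, the B6 difference was 0.25 with an adjusted p of 0.0909.

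Stat5a, the paralog of Stat5b, had no CD4 minus CD8 difference that passed in either strain. For CD4 it had 68.5, 83.3 and 87.1 CPM in B6 and 89.4, 85.7 and 90.6 CPM in FlipFlop mice. For CD8 it had 78.4, 74.9 and 84.2 CPM in B6 and 92.9, 98.7 and 96.8 CPM in FlipFlop mice. The log2 difference was 0.00 in B6, with a 95% interval from -0.18 to 0.19, and -0.12 in FlipFlop, from -0.30 to 0.07 (adjusted p = 0.340). The libraries overlapped in B6 but not in FlipFlop mice, and without the TMM factor the FlipFlop difference passed at -0.29 (adjusted p = 0.0416). The lineage effect of Stat5a was 0.06 (adjusted p = 0.478), and 0.11 (adjusted p = 0.0454) without the B6 CD4 library numbered 1. Whether Stat5a and Stat5b differ in their lineage effect was not tested.

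Stat6 was higher in FlipFlop CD4 than in FlipFlop CD8 T cells, at 287, 282 and 266 CPM against 245, 236 and 231 CPM. The B6 values, 217, 242 and 241 CPM for CD4 and 247, 240 and 252 CPM for CD8, overlapped. The log2 difference within FlipFlop was 0.23 ± 0.063 (adjusted p = 0.0144), and within B6 it was -0.08 ± 0.063 (adjusted p = 0.430), and the lineage effect was -0.15 ± 0.045 (adjusted p = 0.0157). The FlipFlop call was lost without FlipFlop CD4 library 1 or 2 or FlipFlop CD8 library 2 or 3, with adjusted p from 0.0516 to 0.0589. Without the TMM factor the Stat6 values were 0.05 in FlipFlop (adjusted p = 0.561) and -0.03 for the lineage effect (adjusted p = 0.619). That change of scale moved the median of all genes from 0.04 to -0.14 in FlipFlop and from -0.03 to 0.09 for the lineage effect.

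Stat3 was alike in level in all 4 groups and varied most within B6. The B6 values were 220.0, 273 and 309 CPM for CD4 and 237, 245 and 301 CPM for CD8, and all 6 FlipFlop libraries lay between 252 and 268 CPM. The lineage effect was 0.02, with a 95% interval from -0.16 to 0.20 (adjusted p = 0.851).

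**Figure D2:**
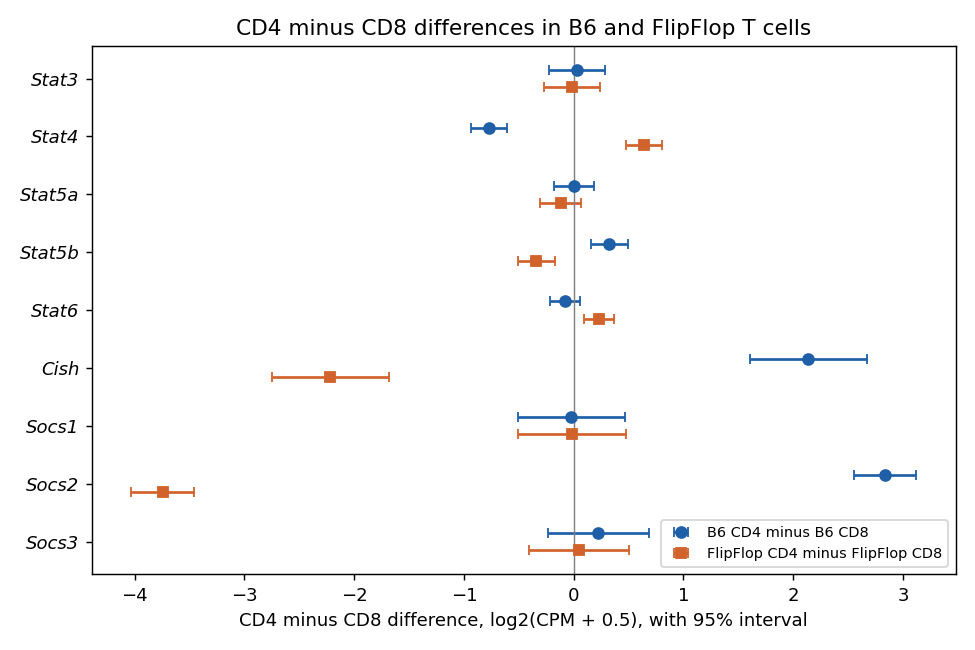
CD4 minus CD8 difference of each gene on the log2(CPM + 0.5) scale, in B6 (blue circles) and FlipFlop (orange squares), with 95% intervals from the limma fit of 12 libraries. Socs2 and Cish changed sign from 2.84 and 2.14 in B6 to -3.75 and -2.22 in FlipFlop, Stat4 changed sign the other way, and the intervals of Stat3, Stat5a, Socs1 and Socs3 included 0 in both strains.

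Among the SOCS genes, Socs2 and Cish, the receptor-binding members, were higher in helper-lineage cells of both strains. Socs2 was the lowest of the 9 genes, and its helper-lineage libraries had 6.88, 7.81 and 6.31 CPM in B6 and 10.1, 9.13 and 10.9 CPM in FlipFlop mice. Its cytotoxic-lineage libraries had 0.524, 0.520 and 0.596 CPM in B6 and 0.197, 0.290 and 0.372 CPM in FlipFlop mice. The low groups rest on few reads, 13 to 18 in B6 CD8 and 6 to 10 in FlipFlop CD4 libraries, against 183 to 242 in B6 CD4 and 276 to 381 in FlipFlop CD8 libraries. All helper-lineage libraries lay above all cytotoxic-lineage libraries. The ratio of means was 12.8 for B6 CD4 over CD8 and 35.0 for FlipFlop CD8 over CD4.

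On the log2(CPM + 0.5) scale the Socs2 difference CD4 minus CD8 within B6 was 2.84 ± 0.13 (adjusted p = 1.34e-08), and within FlipFlop it was -3.75 ± 0.13 (adjusted p = 2.17e-09), and the lineage effect was 3.29 ± 0.092 (adjusted p = 9.59e-11). Socs2 also had the only coreceptor effect that passed among the 9 genes, -0.45 ± 0.092 (adjusted p = 0.0134). It did not pass without both B6 libraries numbered 3 (-0.40, adjusted p = 0.0813). Socs2 averages under 5 CPM and was not tested where only genes above that mean were kept.

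Cish had 37.5, 45.1 and 33.7 CPM in the CD4 and 7.34, 12.2 and 6.43 CPM in the CD8 libraries of B6 mice. In FlipFlop mice the CD4 libraries had 15.2, 8.41 and 15.5 CPM and the CD8 libraries 60.2, 56.0 and 64.7 CPM. The 6 helper-lineage libraries were all higher than the 6 cytotoxic-lineage libraries. The ratio of means was 4.47 for B6 CD4 over CD8 and 4.63 for FlipFlop CD8 over CD4. The log2 difference CD4 minus CD8 within B6 was 2.14 ± 0.24 (adjusted p = 3.36e-05), and within FlipFlop it was -2.22 ± 0.24 (adjusted p = 1.94e-05), and the lineage effect was 2.18 ± 0.17 (adjusted p = 6.49e-07). The calls of Stat4, Socs2 and Cish in B6, in FlipFlop and for the lineage effect held in every other fit that could test them. In such sorted populations, fewer cells that carry a transcript and less RNA per cell cannot be told apart.

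Helper-lineage libraries also held more RNA of regulatory T cell genes, a population known for high interleukin-2 receptor and STAT5 activity. All 8 markers on the list were higher in helper-lineage cells, against 19.9% of all genes. Foxp3, the factor that defines regulatory T cells, averaged 108 CPM (B6) and 326 CPM (FlipFlop) in helper-lineage cells, against 0.967 CPM (B6) and 1.99 CPM (FlipFlop) in cytotoxic-lineage cells. The summed level of the 8 markers ranged from 677 to 820 CPM in B6 and 1425 to 1596 CPM in FlipFlop helper-lineage libraries. In cytotoxic-lineage libraries it ranged from 119 to 122 CPM in B6 and 163 to 220 CPM in FlipFlop mice. Between the helper-lineage groups, the ratio of means FlipFlop CD8 over B6 CD4 was 3.01 for Foxp3, 1.43 for Socs2 and 1.56 for Cish. The part of regulatory T cells in the Socs2 and Cish differences was not tested.

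**Figure D3:**
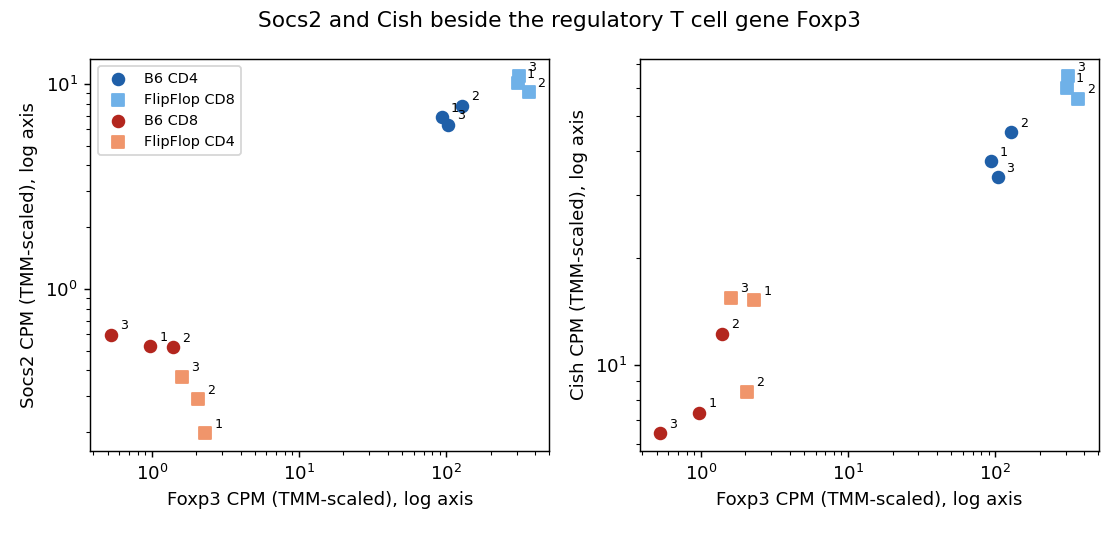
Socs2 and Cish levels (TMM-scaled CPM) against Foxp3 in the 12 libraries, all axes logarithmic, with the replicate number beside each point. Helper-lineage libraries of both strains sit at the upper right, and cytotoxic-lineage libraries at the lower left, with Socs2 at 0.197 to 0.372 CPM in FlipFlop CD4 and 0.520 to 0.596 CPM in B6 CD8, a difference that did not pass (adjusted p = 0.0745).

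Other cell types were at low levels. The summed B cell markers were 35.2 to 67.0 CPM, and Cd79b, a B cell receptor chain, was the 1 of 5 that passed for the lineage effect (-0.86). Myeloid markers summed to 6.17 to 28.5 CPM, and 3 of 4 in the table were higher in helper-lineage cells, against 19.9% of all genes (Itgam 1.42, Lyz2 1.09 and Csf1r 0.72). NK cell markers summed to 2.60 to 13.7 CPM, with Ncr1 not in the table and Klrb1c higher in helper-lineage cells (1.45). The red blood cell genes Hbb-bs and Hba-a1 summed to 3.76 to 19.9 CPM, neither passed for the lineage effect, and Alas2 was not in the table. For the strain effect Hbb-bs and Hba-a1 were both lower in FlipFlop (median -0.96), and so were 3 of 5 B cell markers, with none higher. Of all genes, 31.2% passed for the strain effect in either direction. Of 8 memory or effector genes, 4 were higher in helper-lineage cells, against the same 19.9%, among them S100a4 (3.59) and Cd44 (1.35), and Nkg7, a cytotoxic granule gene, was lower (-4.61). The FlipFlop CD8 library numbered 1 stood apart from the other 2 of its group, with Nkg7 at 67.3 CPM against 10.1 and 15.1 CPM and the chemokine gene Ccl5 at 164 CPM against 15.3 and 35.8 CPM. The B6 CD4 library numbered 3 was also above its group, with Nkg7 at 20.6 CPM against 7.48 and 6.71 CPM. Ccl5 was at 26.6 CPM in that library, against 9.47 and 8.84 CPM. No call of the 9 genes changed when 1 of these 2 libraries was left out. Of the 5 T cell genes, Trac was higher (0.25) and Cd3d lower (-0.27). The part of these cells in the STAT and SOCS differences was not tested.

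Socs1 and Socs3, the members that block JAK kinases, did not pass in any of the 7 comparisons. Socs1 had 36.7, 37.3 and 59.0 CPM for CD4 and 35.8, 37.9 and 62.0 CPM for CD8 in B6 mice. In FlipFlop mice it had 34.8, 27.7 and 38.3 CPM for CD4 and 35.9, 28.5 and 37.0 CPM for CD8. Its lineage effect was 0.00, with a 95% interval from -0.35 to 0.34. Socs3 had 71.1, 92.9 and 106 CPM for CD4 and 59.6, 72.6 and 101 CPM for CD8 in B6 mice, with 84.5, 77.5 and 60.5 CPM for CD4 and 88.9, 67.3 and 60.0 CPM for CD8 in FlipFlop mice. The groups overlapped for both genes. Its lineage effect was 0.09, from -0.24 to 0.41. Within groups their spread was the widest among the 7 genes other than Cish and Socs2, with an SD of up to 32.2% of the mean for Socs1 and 27.2% for Socs3, against at most 16.8% for the 5 STAT genes.

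The highest Socs1 and Socs3 values came from the 2 B6 libraries numbered 3, 1 of CD4 and 1 of CD8 T cells. In these libraries Socs1 was 1.59 and 1.68 times the mean of libraries 1 and 2 of its group, Socs3 1.29 and 1.53 times, Stat3 1.26 and 1.25 times, and Stat2, a STAT factor outside the 9, 1.64 and 1.60 times. The FlipFlop CD4 and CD8 libraries numbered 3, against the same mean in their groups, were at 1.23 and 1.15 times for Socs1, 0.747 and 0.768 times for Socs3, 0.968 and 0.970 times for Stat3 and 1.48 and 1.37 times for Stat2. So Socs1 and Stat2 were above libraries 1 and 2 in all 4 libraries numbered 3, and Socs3 and Stat3 in those of B6 and not of FlipFlop mice. In the B6 libraries numbered 3, Stat4, Stat5a, Stat5b and Stat6 were between 0.925 and 1.15 times, and Cish was 0.817 and 0.656 times.

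The next question was how far groups of the same lineage differed between the strains. Between the cytotoxic-lineage groups, FlipFlop CD4 minus B6 CD8, 0 of 9 genes passed with limma, against 7.92% of all genes tested. At an unadjusted p under 0.05 there were 4 (Socs2, Stat5b, Stat6 and Cish), against 22.9% of all genes. Socs2 was at 0.523 times its B6 CD8 mean, with a log2 difference of -0.42 and a 95% interval from -0.70 to -0.13 (adjusted p = 0.0745). Stat5b differed by 0.24, from 0.07 to 0.41 (adjusted p = 0.0827). Single genes passed in some alternatives, Socs2 with a pseudocount of 0.1 (adjusted p = 0.0243), Stat5b in a fit of the 2 groups (0.0293), Stat6 without the TMM factor (0.0498), Stat5b and Stat6 without the B6 CD4 library numbered 1 (0.0103 and 0.0352), and Cish without the FlipFlop CD4 library numbered 2 (0.0491).

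Between the helper-lineage groups, FlipFlop CD8 minus B6 CD4, 3 of 9 genes passed, against 27.6% of all genes. They were Socs2 (0.49 ± 0.13, adjusted p = 0.0180), Stat5b (0.26 ± 0.078, adjusted p = 0.0301) and Stat5a (0.28 ± 0.085, adjusted p = 0.0319), all higher in FlipFlop, with no overlap between the libraries. Cish differed by 0.64 ± 0.24 (adjusted p = 0.0677), with FlipFlop CD8 libraries all above B6 CD4 libraries. It passed in a fit of the 2 groups (adjusted p = 0.0140), without the TMM factor (0.0331), without the B6 CD8 library numbered 2 (0.0404) and without the FlipFlop CD4 library numbered 2 (0.0341). The 3 calls depended on single libraries. None passed without the FlipFlop CD8 library numbered 3, and Socs2 alone passed without the FlipFlop CD8 library numbered 2 or the B6 CD4 library numbered 1. Without the B6 CD4 library, Stat5a was at 0.17 and Stat5b at 0.17 (adjusted p = 0.0715 and 0.0622). Without the FlipFlop CD8 library numbered 2 they were at 0.26 and 0.23, and without that numbered 3 at 0.27 and 0.26, with Socs2 then at 0.43. In a fit of the 2 groups Stat5a and Stat5b did not pass (adjusted p = 0.107 and 0.115), and Socs2 did not pass without both B6 libraries numbered 3 (adjusted p = 0.0607) or with a pseudocount of 0.1 (adjusted p = 0.0576).

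Over both cell types, the strain effect, FlipFlop minus B6, passed for 3 of 9 genes, against 31.2% of all genes. Stat5b was higher by 0.25 ± 0.055 on the log2 scale (adjusted p = 0.00656), Stat5a by 0.22 ± 0.060 (adjusted p = 0.0184) and Cish by 0.60 ± 0.17 (adjusted p = 0.0221). Socs1 was lower by 0.38 without passing (-0.38, 95% interval from -0.72 to -0.03, adjusted p = 0.0892), and the value was -0.14 (adjusted p = 0.308) without both B6 libraries numbered 3. With the replicate block the 3 calls held, although the strain effect then passed for 2328 of all genes in place of 3615. The Cish call was lost without B6 CD8 library 3, FlipFlop CD4 library 3 or FlipFlop CD8 library 3 (adjusted p from 0.0518 to 0.0550) and without both B6 libraries numbered 3 (0.47, adjusted p = 0.0819), and the Stat5a call without B6 CD8 library 2 (adjusted p = 0.0501). Within 1 Mb of Cish 22 of 39 tested genes had a strain effect (56.4%), 6 higher and 16 lower in FlipFlop, and within 1 Mb of Stat5a 12 of 43 did (27.9%), 6 higher and 6 lower. Around Socs2, which did not pass for the strain effect, 5 of 9 did (55.6%), 3 higher and 2 lower. Around the remaining genes the share was 11.1% (Stat4) to 30.8% (Socs1). Strain and the age in the labels cannot be told apart.

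Per kilobase of exon, the mean level over the 12 libraries was in the order Stat6 (56.5 CPM per kb), Stat5b (41.0), Stat4 (32.9), Stat3 (27.5), Socs3 (27.1), Socs1 (13.5), Stat5a (12.04), Cish (4.70) and Socs2 (0.468). Exon lengths were the union of all annotated exons, which lowers the values of genes with long rare exons. Library by library, Stat6 was above Stat5b, Socs3 above Socs1, Stat5a above Cish and Cish above Socs2 in 12 of 12. The libraries of these pairs did not overlap in any of the 4 groups, except for Socs3 and Socs1, which were separate in 3 of 4. Other neighbours changed places, with Stat5b above Stat4 in 7 libraries, Stat4 above Stat3 in 8 and Socs1 above Stat5a in 7. Stat3 was above Socs3 in 5 libraries, and these 2 overlapped in every group. Stat4 changed its place by lineage, with means of 40.6 and 40.9 CPM per kb in the 2 cytotoxic-lineage groups and of 23.7 and 26.2 CPM per kb in the 2 helper-lineage groups. Cish was at 1.35 to 2.03 CPM per kb in the cytotoxic-lineage groups and 6.04 to 9.40 CPM per kb in the helper-lineage groups.

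The rest of the pathway was then described with gene lists chosen with earlier results of these data known. Of 20 cytokine receptor chains, 19 were tested, and for the lineage effect 7 were higher and 3 lower in helper-lineage cells, against 19.9% of all genes higher and 19.4% lower. Il2ra, the chain that gives the interleukin-2 receptor its high affinity, had the largest lineage effect of the list at 5.38 on the log2 scale, with helper-lineage means of 92.1 CPM (B6) and 232 CPM (FlipFlop) and cytotoxic-lineage means of 2.64 CPM (B6) and 3.52 CPM (FlipFlop). Il2ra is also 1 of the 8 regulatory T cell markers described above, all of which were higher in helper-lineage cells, so its counts in the 2 lists are not separate, and the part of regulatory T cells in its difference was not tested. Il9r (3.25) and Il10ra (1.13), chains of the interleukin-9 and interleukin-10 receptors, were also higher, and Il10rb (-0.60), which is shared by several receptors of that family, was lower. The signalling chains of the interleukin-2 receptor had lineage effects of -0.11 for Il2rb (adjusted p = 0.216) and -0.14 for Il2rg (adjusted p = 0.105). Il2rb followed the coreceptor, with a coreceptor effect of -0.89 (adjusted p = 1.12e-05), and it was lower in CD4 than in CD8 T cells of B6 (-0.996, adjusted p = 5.24e-06) and of FlipFlop mice (-0.78, adjusted p = 3.27e-05). The median lineage effect of the 19 chains was -0.07, against -0.03 for all genes.

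Of the 4 JAK kinases, Jak1 was lower (-0.33, adjusted p = 0.00102) and Jak2 higher (0.21, adjusted p = 0.0473) in helper-lineage cells, while Jak3 and Tyk2 gave -0.01 and -0.02. Stat2 gave 0.13 and did not pass. None of Socs4, Socs5, Socs6 and Socs7 passed for the lineage effect (-0.08 to 0.06), nor did Cul5, Rnf7, Elob and Eloc, which build the ubiquitin ligase around the SOCS box (0.04 to 0.11). For the strain effect Socs5 was higher (0.19) and Eloc lower (-0.25) in FlipFlop. Of 10 other inhibitors, 3 were higher and 1 lower in helper-lineage cells, a share close to that of all genes (39.3%). Ptpn6, the phosphatase SHP-1, was lower (-0.37), and Pias3, an inhibitor of STAT3 (0.41), and the phosphatase genes Ptpn11 (0.28) and Ptpn1 (0.18) were higher.

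Of 21 genes that STAT factors are known to act on in T cells, 11 were higher and 4 lower in helper-lineage cells, against 19.9% and 19.4% of all genes, with a median of 0.34 against -0.03. Maf (4.89) and Gata3 (1.02), factors of helper T cells, and Pim1 (1.11), a survival kinase, were higher. Pim2 (-1.20), a kinase related to Pim1, and Myc (-0.49), Bcl2 (-0.32) and Ccnd2 (-0.25), genes of growth, survival and cell division, were lower. Of these, Myc, Bcl2 and Ccnd2 were named after their values were seen, as were the coreceptor values of Il2rb and Tbx21. Tbx21, a target of STAT4 signals, had a lineage effect of -0.69 that did not pass (adjusted p = 0.0701) and a coreceptor effect of -1.39 that did (adjusted p = 0.0134). Tbx21 was lower in CD4 than in CD8 T cells of B6 mice (-2.08, adjusted p = 0.00184), and the value for FlipFlop mice was -0.69 without passing (adjusted p = 0.219). In the B6 CD4 libraries Tbx21 was at 3.19, 4.23 and 11.4 CPM, and its values without library 3 of that group are not given here. Tbx21 was at 22.4 CPM in the FlipFlop CD8 library numbered 1 and at 9.23 and 10.3 CPM in the others of that group. Without this library, an alternative chosen after the data were seen, the FlipFlop value was -0.31 (adjusted p = 0.599), the coreceptor effect -1.20 (adjusted p = 0.0258) and the lineage effect -0.89 (adjusted p = 0.0187), so that both effects then passed. Immediate early genes, which can rise during cell isolation, were higher for 6 of 10 in helper-lineage cells, against 19.9% of all genes. Nr4a1 (1.53) and Dusp1 (1.38) were among them, and none of the 10 was lower, against 19.4% of all genes. The part of immediate early genes in the Socs2, Cish and Stat4 differences was not tested.

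**Figure D4:**
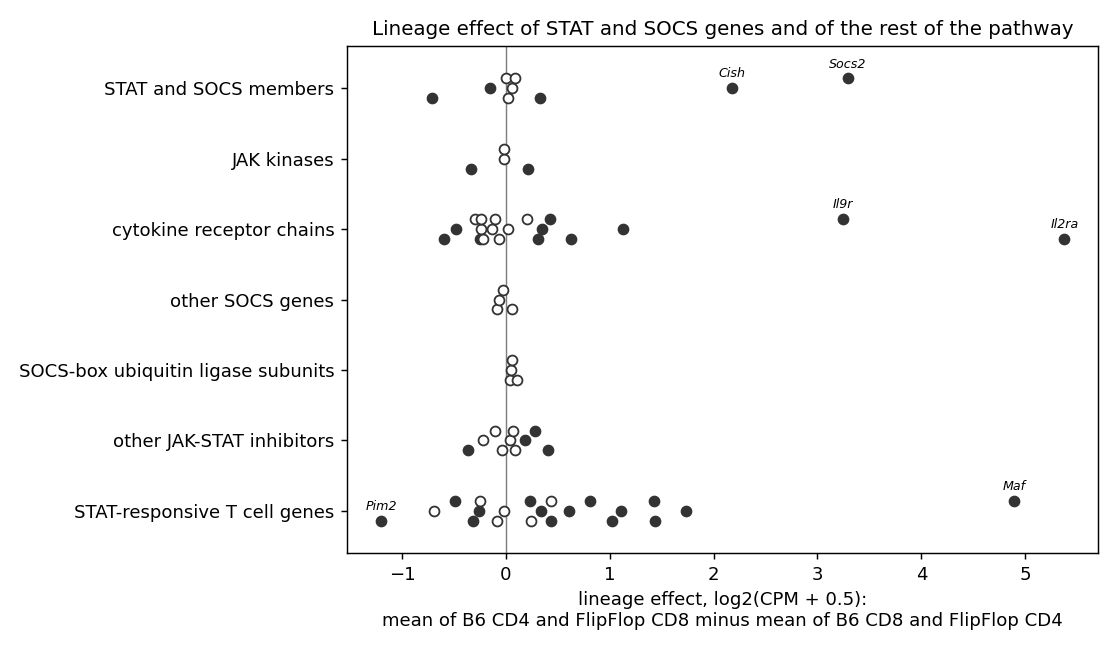
Lineage effect on the log2(CPM + 0.5) scale (helper-lineage minus cytotoxic-lineage groups) of the 9 STAT and SOCS genes and of the other pathway lists. Each point is a gene, filled where its adjusted p was under 0.05, with names for effects over 2 and for Pim2. Il2ra (5.38) and Maf (4.89) lay farthest to the right, and Cish (2.18) and Socs2 (3.29) stood apart from the other 7 members, which lay between -0.71 and 0.33.

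The genes whose pattern over the 12 libraries was most like each member differed between members. For Socs2 they were H1f0 (Pearson r = 0.991), Lrrc32 (0.991) and Epcam (0.989), and for Cish they were Dhrs3 (0.986), Leprot (0.985) and Arc (0.980). Stat4 was most like Gimap5 (0.984), Tm6sf1 (0.983) and A930002I21Rik (0.983), and Stat5b most like Erc1 (0.982), Mtmr3 (0.976) and Tmem164 (0.970). Stat5a was most like Ccser2 (0.952) and Stat6 most like Stim1 (0.929). Socs1 was most like Irgm1 (0.972), Ube2w (0.956) and Igtp (0.943), and Stat3 most like Gbp5 (0.898), Parp14 (0.8798) and Cd274 (0.878). Igtp and Gbp5 encode GTPases, and Cd274 encodes PD-L1. In the B6 libraries numbered 3, Irgm1, Igtp, Gbp5, Parp14 and Cd274 were at 1.46 to 3.03 times the mean of libraries 1 and 2. In the FlipFlop libraries numbered 3 they were at 0.960 to 1.17 times. How far the likeness to Socs1 and Stat3 rests on the 2 B6 libraries was not tested. Socs3 had the weakest likeness, with r = 0.846 for Calr. These were the 3 highest of 11594 values for each member, or the first of them, over libraries that share groups, and are a description.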

How the data were processed

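RNA-sequencing libraries of sorted LN T cells (low-input kit, paired-end reads of 125 bases) were aligned to mm10, with STAR in the study's methods and with Trimmomatic and TopHat in the submitters' processing notes. The counting program, its annotation and its use of strand are not given in the sources used here. The deposited values are 1 table of signal that the authors had normalized as CPM with a TMM factor, and its columns sum to 875501 to 1081793. All 12 columns were mapped. From steps between low values, 84.8% to 86.4% of values under 100 CPM were within 0.005 reads of a whole read, and no test was run on read counts. Depth was 26600000 to 33100000 reads, and intervals of reads cover counting error only, since the reads carry no molecular identifiers.

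The 11595 genes that reached 1 CPM in 3 or more libraries (1214 did not) were fitted on log2(CPM + 0.5) with limma 3.58.1 (lmFit, eBayes with trend) in R 4.3.3, with 4 group means, all 12 libraries, no block and 8 residual degrees of freedom. All adjusted p-values are from limma with Benjamini-Hochberg adjustment over all genes tested. The fit was tested on simulated data for the lineage effect with 11357 genes and called 100 of 100 genes changed 2-fold, 100 of 100 changed 4-fold and 13 others. The simulated libraries were independent, with 1 spread setting for all genes. In the real libraries Cish had an SD of 36.1% of its mean in B6 CD8, and same-numbered FlipFlop libraries deviated together. The simulation did not cover such spread or such libraries. The members, the gene lists, the naming rule and the alternatives were chosen with earlier results of these data known. Named are all members, in each list up to 4 genes with the smallest lineage and 2 with the smallest strain p among those that passed, of which those that bear on the text are given, and the 3 genes most like each member. Promoters were RefSeq sequences of GRCm38.p6, and the motifs were picked after the data were seen. Same-numbered FlipFlop CD4 and CD8 libraries deviated together (r = 0.44, 0.27 and 0.51), so by the rule used their numbers pair them, although no source names what they share. Comparisons that share a group also share its libraries. Figures were drawn with matplotlib 3.10.9.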

Additional observations from a re-analysis of the deposited data

Results flagged for a closer look

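For 5 genes the CD4 minus CD8 difference was not the same in B6 and in FlipFlop mice, tested as the interaction of strain and coreceptor, the same test as that of the lineage effect. The lineage effects were -0.71 for Stat4, 0.33 for Stat5b, -0.15 for Stat6, 3.29 for Socs2 and 2.18 for Cish on the log2 scale (limma, all passed after Benjamini-Hochberg adjustment). In Stat4, Stat5b, Socs2 and Cish all B6 libraries differed one way and all FlipFlop libraries the other, and in Stat6 the B6 libraries overlapped. The Stat6 interaction was lost without the TMM factor.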

How the results depend on the processing

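Of 427 refits of results that had passed, 403 still passed and 24 did not, none with the opposite sign. Of 862 refits of results that had not passed, 16 passed and 75 had the opposite sign.

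The count of the 9 genes that passed depended on the threshold. With more than 2-fold required it was 2 within B6, 2 within FlipFlop and 2 in the lineage contrast, against 7.67%, 9.06% and 7.95% of all genes. It was 0 for the coreceptor, strain and FlipFlop CD8 minus B6 CD4 comparisons, against 0.638%, 1.74% and 4.35%. With more than 5-fold at an unadjusted p under 0.0001 or under 0.05, only Socs2 was left. The count was then 1 within B6, 1 within FlipFlop and 1 in the lineage contrast, against 1.55% to 2.21% of all genes. For the other 4 comparisons it was 0, where 0.0172% to 0.535% of all genes were past that threshold. For FlipFlop CD4 minus B6 CD8 the count of 0 became 1 with a pseudocount of 0.1, 1 without the TMM factor, 1 in a fit of the 2 groups, and 0 to 2 when a library was left out. Without the TMM factor it was 5 for the strain effect, where Stat4 (0.19) and Stat6 (0.21) also passed, and 6 for FlipFlop CD8 minus B6 CD4, where leaving out a library gave 0 to 4. That scale moved the median of all genes from -0.01 to 0.10 for the strain effect and from -0.01 to 0.15 for FlipFlop CD8 minus B6 CD4. The coreceptor effect gave 0 among genes averaging at least 5 CPM, where Socs2 was not tested, and 0 without both B6 libraries numbered 3.

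Directions turned only for differences near 0 that did not pass. With a pseudocount of 0.1 the Socs2 strain effect was -0.13. With median-of-ratios rescaling, Stat5a was at -0.00704 within B6, and Stat3 at -0.00610 (coreceptor), 0.00110 (strain) and 0.00721 (FlipFlop CD8 minus B6 CD4). Without the TMM factor, Socs1 was at 0.0470 within B6 and 0.12 by lineage, Socs3 at -0.13 within FlipFlop and 0.0107 in FlipFlop CD4 minus B6 CD8, and Stat3 at -0.0480 (coreceptor), 0.0986 (strain), 0.0506 (FlipFlop CD4 minus B6 CD8) and 0.15 (FlipFlop CD8 minus B6 CD4). Without both B6 libraries numbered 3, Stat5a was at -0.0203 and Socs1 at 0.00614 within B6, Socs1 at 0.0100 by lineage, Socs3 at 0.16 in FlipFlop CD4 minus B6 CD8, and Stat3 at 0.0962 (strain), 0.10 (FlipFlop CD4 minus B6 CD8) and 0.0919 (FlipFlop CD8 minus B6 CD4). The cause of these changes was not tested.

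With each library left out in turn, values that crossed 0 were as follows. Stat3 ranged from -0.0822 to 0.16 within B6, -0.0325 to 0.0901 by lineage, -0.0497 to 0.0729 by coreceptor, -0.0804 to 0.0422 by strain, -0.0734 to 0.10 in FlipFlop CD4 minus B6 CD8 and -0.15 to 0.0919 in FlipFlop CD8 minus B6 CD4. Socs1 ranged from -0.24 to 0.23 within B6, -0.13 to 0.12 within FlipFlop, -0.11 to 0.12 by lineage and -0.13 to 0.11 by coreceptor. Socs3 ranged from -0.0745 to 0.21 within FlipFlop and -0.22 to 0.16 in FlipFlop CD4 minus B6 CD8. Stat5a ranged from -0.0654 to 0.11 within B6, and by coreceptor Stat5b ranged from -0.0401 to 0.0383 and Cish from -0.13 to 0.10. Stat4 in FlipFlop CD4 minus B6 CD8 ranged from -0.0436 to 0.0422, Stat6 in FlipFlop CD8 minus B6 CD4 from -0.0276 to 0.0491, and the Socs2 strain effect from -0.00269 to 0.0780.

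With the replicate block the 9 genes gave the same counts (4 in B6, 5 in FlipFlop, 5, 1, 3, 0 and 3) and no call changed. Over all genes the block moved the coreceptor effect from 636 to 954 and the strain effect from 3615 to 2328 genes. In B6, same-numbered CD4 and CD8 libraries correlated at 0.18, 0.09 and 0.35, and CD4 library 2 correlated better with CD8 library 1 (0.16) than with its own number. Groups of 3 libraries, and 6 to 18 reads of Socs2 in the cytotoxic-lineage libraries, limit the precision.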
